A study of Mus musculus with 2 samples.

Results

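The 10 genes Bglap, Ibsp, Sp7, Runx2, Alpl, Ifitm5, Dmp1, Phex, Mepe and Spp1 mark osteoblasts, the cells that build bone, and osteocytes, the cells that live inside it. They were taken by symbol from the 19465 genes listed for each library, and all 10 were found in both. The series holds 2 sections labelled as bone of nude mice, 1 with a flat and 1 with a micropillar implant, profiled by spatial transcriptomics of formalin-fixed, paraffin-embedded tissue. The title of the series asks how implant microtopography bears on bone regeneration. The labels give no age, time after surgery or number of animals for either section. With 1 library per group no difference has a replicate check, no test was possible, and each interval given is an exact 95% interval that covers counting error only.

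Osteoblasts arise from mesenchymal progenitors under the transcription factors Runx2 and Sp7 (osterix), secrete a collagen-rich matrix, and mineralize it with the help of tissue-nonspecific alkaline phosphatase (Alpl). Bone sialoprotein (Ibsp), osteopontin (Spp1), osteocalcin (Bglap) and the membrane protein Ifitm5 belong to the mineralizing stage. Cells buried in the matrix become osteocytes, which make Dmp1, Phex and Mepe, proteins of mineralization and phosphate balance. Several of the 10 are used elsewhere too: Alpl in brain vessels, Spp1 in macrophages and osteoclasts, Runx2 in cartilage.

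The genes lie on 6 other chromosomes and on chromosome 5, where Dmp1, Ibsp, Mepe and Spp1 stand within 238.4 kb (chr5:104202613-104441050, GRCm38). Bglap lies on chromosome 3 (88383501 to 88384464, minus strand), Runx2 on chromosome 17 (44495987 to 44814797, minus strand), Alpl on chromosome 4 (137741733 to 137796384, minus strand), Sp7 on chromosome 15 (102356606 to 102367182, minus strand), Ifitm5 on chromosome 7 (140948958 to 140950291, minus strand) and Phex on the X chromosome (157162075 to 157415312, minus strand). All are protein-coding. Mouse has near-identical copies of Bglap, whose rows were not analysed here, so the Bglap counts are uncertain as to which copy they come from. Runx2 overlaps Supt3 on the opposite strand, and Ifitm5 overlaps the gene model Gm45717 on its own strand.

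The sequences upstream of Bglap, Spp1 and Alpl are shown because these 3 genes, all with UMIs in the matrix-rich tissue described next, differ in whether the core of the RUNX site lies near their start. Each run is the 250 bases before a RefSeq transcript start (GRCm38.p6), 5′ to 3′ on the strand of the gene. Capitals mark TGTGGT or its reverse complement ACCACA, the core recognised by Runx2 and its relatives. The windows are chr3:88384467-88384716 on the minus strand, chr5:104434861-104435110 on the plus strand and chr4:137796385-137796634 on the minus strand.
Bglap: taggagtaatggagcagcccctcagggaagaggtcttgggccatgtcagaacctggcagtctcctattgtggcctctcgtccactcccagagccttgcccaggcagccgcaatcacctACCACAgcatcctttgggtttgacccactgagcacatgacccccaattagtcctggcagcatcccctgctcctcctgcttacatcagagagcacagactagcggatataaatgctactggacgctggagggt
Spp1: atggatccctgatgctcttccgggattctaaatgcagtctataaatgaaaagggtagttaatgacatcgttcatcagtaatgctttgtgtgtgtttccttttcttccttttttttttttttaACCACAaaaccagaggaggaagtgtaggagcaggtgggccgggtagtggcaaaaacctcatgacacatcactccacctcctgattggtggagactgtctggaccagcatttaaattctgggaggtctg
Alpl: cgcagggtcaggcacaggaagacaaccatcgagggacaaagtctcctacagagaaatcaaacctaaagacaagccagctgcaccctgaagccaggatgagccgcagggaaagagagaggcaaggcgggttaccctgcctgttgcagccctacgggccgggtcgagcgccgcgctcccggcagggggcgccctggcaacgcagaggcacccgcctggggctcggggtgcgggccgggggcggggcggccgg

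The core stood 132 bases before the Bglap start and 128 bases before the Spp1 start, and no match lay in the Alpl window. The 9 genes with a window had 12 windows, of which 5 held the core (1 each of Bglap, Runx2, Dmp1, Mepe and Spp1), against 14.05% of all 32851 windows of that length. Sp7 had no window. A match of these letters is a description of the sequence and does not show that a factor binds there.

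A spot is a small area of the section whose captured RNA shares 1 barcode, and a UMI counts 1 captured molecule. Spots with at least 100 UMIs were kept, 2681 of 3161 in the flat and 3064 of 3303 in the micropillar library, with 2263345 and 3173632 UMIs and medians of 602 and 831 UMIs per spot. The libraries share 2135 spot barcodes, which name positions on the slide grid and not cells. Clustering without the 10 genes gave 11 regions. Against the tissue label, the 3 regions led by neuron genes (among them Slc17a7, Avp and Oxt) held 3267 spots and 74.9% of all UMIs. Region 6, led by the astrocyte genes Gfap and Aqp4 and the immunoglobulin genes Ighj1 and Igha, held 295 spots and 3.12%. Regions 7 and 8, led by Scgb1b2 and by skeletal muscle genes, came mostly from 1 library each, with 31 and 261 spots and with 243 and 22 spots in the flat and micropillar library. Collagen genes led 2 regions: the matrix-gene region, led by Comp, Sfrp2, Col1a2 and Fn1, with 417 flat and 392 micropillar spots, and a small region led by the neutrophil protease gene Elane and the globin genes Hbb-bs and Hba-a2, with 32 and 15 spots.

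The osteoblast and osteocyte genes gave 506 flat and 803 micropillar UMIs, or 223.6 and 253.0 CPM (counts per 1000000 UMIs of the library or region, 95% intervals 204.5 to 243.9 and 235.8 to 271.1). A UMI of any of them was found in 304 flat spots (11.3%) and 465 micropillar spots (15.2%). More than 1 gene of the set was found in 33 and 69 spots, 1.23% (0.849% to 1.72%) and 2.25% (1.76% to 2.84%), and no spot held more than 4. Bglap alone gave 58.1% and 60.2% of the UMIs of the set, so sums over the 10 genes follow Bglap. Each spot pools RNA of several cells, and fewer cells of a type and less RNA per cell cannot be told apart.

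**Figure D1:**
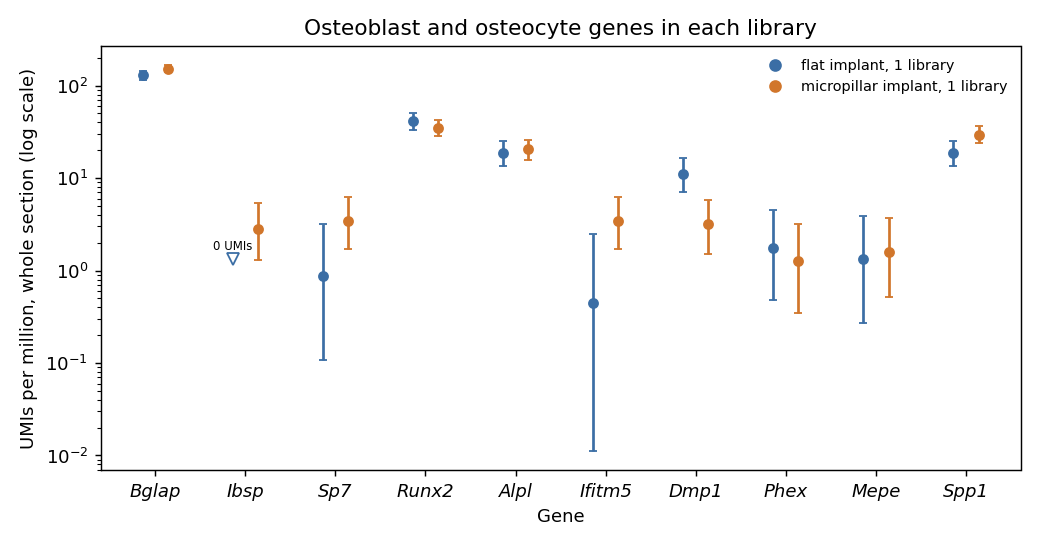
UMIs per 1000000 (CPM) of each gene in each library (log scale), summed over kept spots, with exact Poisson 95% intervals; the open triangle is the limit that a count of 0 allows (3 UMIs) for Ibsp in the flat library. Bglap, Runx2, Alpl and Spp1 had 42 or more UMIs in each library, and Dmp1 is the gene of the 5 best counted with the lower level in the micropillar library by more than 2-fold.

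Runx2, the factor that starts the osteoblast program, had UMIs in 10 of the 11 regions, with its highest flat levels in the collagen-rich ones. In the micropillar library the 22 muscle-gene spots had the highest level, 456.2 CPM (124.3 to 1168) from 4 UMIs. It had 93 flat UMIs in 83 spots and 111 micropillar UMIs in 105 spots, or 41.1 and 35.0 CPM, with a log2 ratio of micropillar over flat of -0.23 (-0.64 to 0.18). The 2 levels lay within each other's counting error. The 3 neuron-gene regions held 102 of its 204 UMIs, the matrix-gene region 50 and the Elane region 3. In CPM the order was different, with 262.6 (flat) and 138.8 (micropillar) in the matrix-gene region against 30.6 and 25.4 in the Slc17a7 region. As a share of spots the contrast was small: 4.56% of flat and 5.87% of micropillar matrix-gene spots held a Runx2 UMI, at median depths of 200 and 343.5 UMIs, against 4.02% and 2.87% of Slc17a7 spots, at 1144 and 987 UMIs. Slc17a7 spots with a Runx2 UMI held a UMI of Col1a2, a type I collagen chain, more often than those without it (27.5% against 14.8% flat, 36.8% against 27.2% micropillar), and were deeper (median 2038 against 1083 and 1686 against 976 UMIs). Scaled to the UMIs of the spots, Col1a2 stood at 214.0 CPM in flat spots with and without it, and at 221.3 and 328.9 in micropillar spots with and without it. The overlapping Supt3 lies on the opposite strand and is listed as a gene of its own, and the assignment of reads between the 2 genes was not checked here.

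Sp7, which acts downstream of Runx2, had few UMIs. There were 2 flat UMIs and 11 micropillar UMIs, a ratio of 3.92 with a log2 interval of -0.22 to 5.19. No spot held 2 of them. Of the 13, 2 (15.4%) lay in the matrix-gene and Elane regions, which held 5.27% of all UMIs, and 8 (61.5%) in the neuron-gene regions, which held 74.9%.

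Bglap, osteocalcin, was the best counted gene of the set. It had 294 flat UMIs in 154 spots (5.74%) and 483 micropillar UMIs in 247 spots (8.06%), or 129.9 and 152.2 CPM. The log2 ratio was 0.23 (0.016 to 0.44). Its median spot was shallow in the flat library (304.5 UMIs) and of usual depth in the micropillar library (817 UMIs). With each spot of at least 250 UMIs thinned to that number, the expected share of spots with a Bglap UMI was 2.52% and 2.95%, and thinned to 500 UMIs it was 1.85% and 3.69%, so the size of the gap differed with the thinning depth and the spots that reached it. The ratio depended on how spots entered: it was 0.74 among spots with at least 500 UMIs and -0.12 when every spot had the same weight.

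The collagen-rich tissue held most Bglap UMIs. The matrix-gene region had 108 flat and 243 micropillar Bglap UMIs, 1091 and 1405 CPM, and the Elane region 57 and 34, 6899 and 5592 CPM. Together these regions held 56.9% of Bglap UMIs and 5.27% of all UMIs. Bglap was found in 14.9% of flat and 18.6% of micropillar matrix-gene spots, and in 32 of the 47 Elane spots (68.1%). In the Slc17a7 region, neural tissue in which osteocalcin should be lacking, 3.82% and 4.01% of spots held a Bglap UMI, at 48.8 and 36.5 CPM. The order of levels, Elane, matrix-gene, then muscle-gene region (793.1 CPM), held for the flat library. In the micropillar library the 22 muscle-gene spots had 16 Bglap UMIs, 1825 CPM (1043 to 2963), above the matrix-gene region but with an interval that includes its level. Region 7 had 248.5 CPM over both libraries, and no other region exceeded 70.5. Region 7 added 66 Bglap spots, all of them in the micropillar library. The flat library had 31 spots of this region with 7611 UMIs, against 261 micropillar spots with 350592, so its lack of Bglap there says little.

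Bglap spots outside the collagen-rich regions were not all alike. In the flat Slc17a7 region, 19 of the 38 Bglap spots (50%) also held a Col1a2 UMI, against 13.9% of spots without Bglap, and Col1a2 stood at 1714 against 138.4 CPM. In the micropillar Slc17a7 region the contrast was smaller, 39.6% against 27.0% of spots, and 538.3 against 314.9 CPM. Part of the flat neural-region Bglap signal thus stood in spots that also held matrix RNA. The 66 micropillar Bglap spots of region 7 were deeper than its other micropillar spots (median 1763 against 933 UMIs). More of them held a Col1a2 UMI (98.5% against 87.2%), but the Col1a2 level was 2820 against 2885 CPM.

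**Figure D2:**
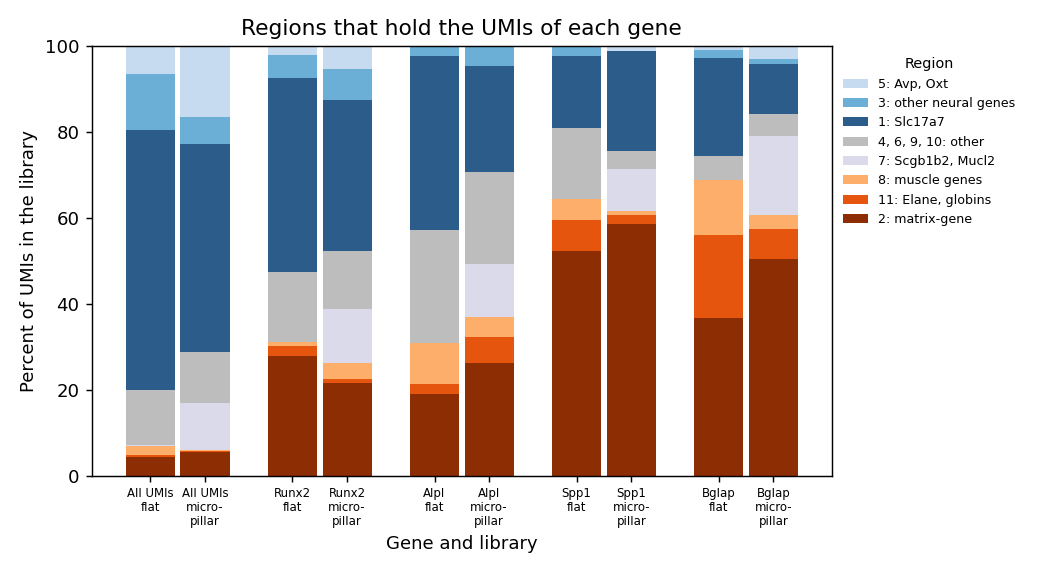
Percent of UMIs by region for all genes and for the 4 best counted genes, in each library (stacked bars, 100% per bar). The matrix-gene and Elane regions hold 49.1% of the UMIs of the 10 genes and 5.27% of all UMIs, and Runx2 and Alpl have a larger part in neuron-gene regions than Bglap and Spp1.

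A few spots carried much of the micropillar Bglap signal. The 3 richest micropillar spots held 32, 32 and 22 Bglap UMIs, all in the matrix-gene region, in spots of 333, 383 and 473 UMIs. The richest flat spot held 10, in the muscle-gene region. The 10 richest Bglap spots of each library held 23.8% of its flat and 31.3% of its micropillar UMIs, and 14 spots in each library held 5 or more. Of these 14, the matrix-gene region had 4 flat and 11 micropillar spots. The 2 richest micropillar spots also held 2 Alpl UMIs each, and the first held 1 of Ifitm5.

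**Figure D3:**
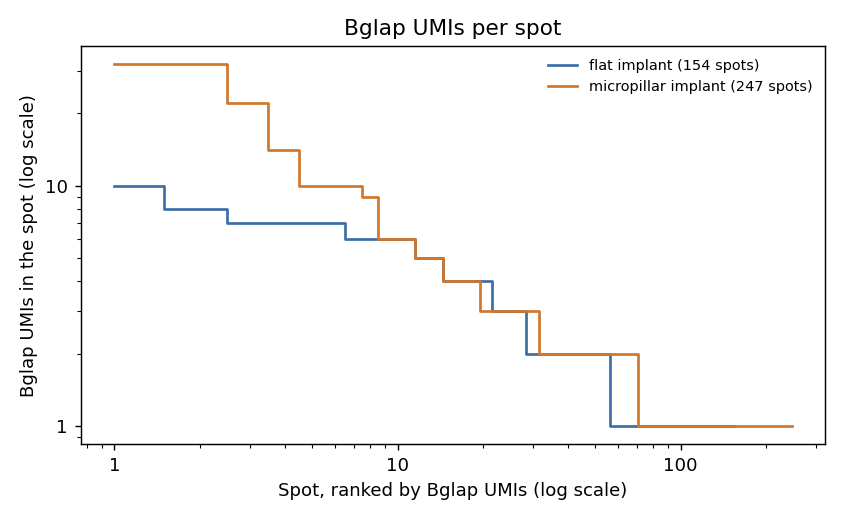
Bglap UMIs in each spot that held any, ranked from the highest, with 154 flat and 247 micropillar spots (both axes log scale). The libraries differ most among the 8 richest spots, where the micropillar values run from 32 to 9 and the flat values from 10 to 6.

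Alpl, the phosphatase that frees phosphate for mineral, was at 42 flat UMIs in 39 spots and 65 micropillar UMIs in 60 spots. These are 18.6 and 20.5 CPM, a log2 ratio of 0.14 (-0.44 to 0.74). The matrix-gene and Elane regions held 30 of its 107 UMIs, the neuron-gene regions 37 and region 6, led by astrocyte and immunoglobulin genes, 9. The region led by Ttr, the transthyretin gene of choroid plexus, held 8 Alpl UMIs at 132.7 CPM, close to the matrix-gene region's 91.9. Alpl therefore marked more than 1 tissue in these sections.

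Spp1, osteopontin, was more concentrated. It had 42 flat UMIs in 36 spots and 94 micropillar UMIs in 84 spots, 18.6 and 29.6 CPM. The log2 ratio was 0.67 (0.14 to 1.24), below 2-fold, and 1.36 among spots with at least 500 UMIs. The matrix-gene region held 22 and 55 of them, 222.2 and 318.0 CPM, and the Slc17a7 region 7 and 22, 5.10 and 14.4 CPM. Within the Slc17a7 region it was the only one of the 4 genes of the set with 20 UMIs past 2-fold, at 1.49 (0.22 to 2.96), where 4.27% of all 9812 genes so counted were past it in either direction and 3.36% were higher in the micropillar library. Thinned to 250 UMIs, the expected share of spots with an Spp1 UMI came to 0.632% (flat) and 0.952% (micropillar).

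Ibsp and Ifitm5, both of mineralizing osteoblasts, had few UMIs. Ibsp had 0 flat UMIs in the kept spots, which allows up to 1.33 CPM, and 9 micropillar UMIs in 9 spots, at least 2.14-fold higher when the 9 are taken as counted and set against a floor of 3 UMIs in the flat library. With counting error on both sides the log2 ratio has a lower limit of 0.49. Spots under 100 UMIs, which were left out, held 1 flat and 1 micropillar Ibsp UMI. Ifitm5 had 1 and 11 UMIs, a ratio of 7.85 with a log2 interval of 0.19 to 8.40. Taken with Sp7, these genes had 3 flat and 31 micropillar UMIs. Of the 31, 9 lay in the matrix-gene and Elane regions, 13 in neuron-gene regions and 9 elsewhere. The collagen-rich regions thus held 29.0% of them, against 5.27% of all UMIs of both libraries, while most of the UMIs by number lay outside. These 3 genes were put together after their values were seen.

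Dmp1, the osteocyte matrix protein, had fewer UMIs in the micropillar library. It had 25 flat UMIs in 21 spots and 10 micropillar UMIs in 10 spots, 11.1 and 3.15 CPM. The log2 ratio was -1.81 (-3.03 to -0.70). It was the only one of the 5 genes of the set with at least 20 UMIs to pass 2-fold, in a comparison where 4.78% of 12145 genes did so in either direction and 1.52% were lower in the micropillar library. Among spots with at least 500 UMIs the log2 ratio was -0.94, short of 2-fold. The expected share of spots with a Dmp1 UMI was 0.313% and 0.0986% thinned to 250 UMIs and 0.179% and 0.195% thinned to 500, where the order turned. The matrix-gene and Elane regions held 16 flat and 3 micropillar Dmp1 UMIs, and the rest of the sections 9 and 7. Of the latter 16 UMIs, 7 lay in the neuron-gene regions and 5 in the muscle-gene region. The Elane region had 7 flat and 1 micropillar UMIs.

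Phex and Mepe, the other osteocyte genes, were too scarce to compare. Phex had 4 UMIs in each library, 6 of the 8 in neuron-gene regions, and Mepe 3 and 5, with 5 of the 8 in the matrix-gene region. The log2 intervals spanned -2.91 to 1.94 and -2.11 to 2.94.

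Pairs of these genes met in few spots. Bglap and Runx2 shared 10 flat and 17 micropillar spots, where the product of their shares gave 4.77 and 8.46. Bglap and Alpl shared 7 and 19, against 2.24 and 4.84, and Bglap and Spp1 shared 5 and 19, against 2.07 and 6.77. Inside the matrix-gene region, where both genes of a pair are more common, the gap narrowed for Bglap and Spp1, with 4 flat spots against 2.68 and 15 micropillar spots against 8.38. It did not narrow in proportion for Bglap and Runx2, with 6 flat spots against 2.825 and 10 micropillar spots against 4.283. Bglap and Alpl shared 3 flat spots there against 1.041 and 8 micropillar spots against 2.421. Over the whole section, Bglap and Dmp1 shared 8 flat spots against 1.21 and 5 micropillar spots against 0.806. Inside the matrix-gene region the gap of this pair narrowed, with 3 flat spots against 1.041 and 1 micropillar spot against 0.372. In the flat Elane region the pair shared 3 spots against 3.28. Runx2 and Spp1 differed by library over the whole section, with 4 shared flat spots against 1.11 and 3 micropillar spots against 2.88. Spots differ in depth and tissue, and these counts were not tested. Of the 154 flat Bglap spots, 129 held no other gene of the set, and of the 247 micropillar Bglap spots, 186 held none.

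Genes were then ranked by how they went with each gene of the set across spots. Ranked by the smaller of the 2 libraries' ratios between spots with and without Bglap, over 1210 genes, the first beside Bglap were Camp (19.7), Elane (19.3) and Prtn3 (13.3), which are granule genes of neutrophil precursors, then the matrix gene Tnn (7.50) and Crispld2 (4.48). For Spp1, 141 genes could be ranked, and Col1a2 (4.06), Col3a1 (3.86), Bgn (3.80) and Fn1 (3.68) came near the top, all of them matrix genes. Alpl had Ttr (4.46), then the muscle gene Ckm (2.76), the choroid plexus gene Enpp2 (2.38) and the muscle genes Tnnc2 (2.07) and Tnnt3 (1.83), over 271 genes. Runx2 had ratios near 1, led by Col5a2 (1.79) and followed by Fbxw7 (1.62), Btbd1 (1.61) and Denr (1.59), over 1121 genes. Spots with at least 2 genes of the set, 33 flat and 69 micropillar, had the highest ratios for Col1a2 (6.93), Sparc (4.99), Col3a1 (4.72), Col6a2 (3.83), Fn1 (3.69) and the globins Hbb-bs (3.20) and Hba-a2 (2.63). Lower on that list, over 118 genes, were Selenop (1.88), Ctsb (1.68), Rack1 (1.68) and Ctsl (1.56).

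Within the matrix-gene region, marker lists of other cell types were summed in spots with and without a UMI of Bglap. The list of fibroblast and bone matrix genes was 1.40-fold (1.32 to 1.48) higher in the 62 flat spots with Bglap and 1.48-fold (1.41 to 1.54) in the 73 micropillar spots. Neutrophil genes differed by library, with a ratio of 1.09 (0.439 to 2.38) in the flat and 5.44 (3.68 to 8.13) in the micropillar region; over all spots of the region 7 of its 8 markers had UMIs on the flat section and 8 on the micropillar section, at 454.5 and 670.8 CPM in sum. Cartilage and tendon genes went in opposite directions, 0.311 (0.171 to 0.523) and 1.97 (1.41 to 2.73). Over all spots of the region 7 of these 8 markers had UMIs on the flat and 5 on the micropillar section, at 2616 and 942.6 CPM. The region held 67.1% of the flat and 43.2% of the micropillar UMIs of this list, so this contrast too depends on which spots the region holds. The osteoclast list stood at 1.08 (0.654 to 1.70) and 1.51 (1.16 to 1.95). Bglap spots were thus collagen-rich in both libraries, and the osteoclast intervals of the libraries overlap. The clustering had put 62% of flat but 29.4% of micropillar neutrophil-list UMIs into the separate Elane region, so the neutrophil contrast also reads which spots remained in the matrix-gene region. Spots with Spp1 were not richer in matrix genes, at 1.01 (0.908 to 1.11) and 1.02 (0.969 to 1.07), and were at 1.56 (1.01 to 2.30) and 1.21 (0.961 to 1.50) for the macrophage list. The part of these other cells in the Bglap and Spp1 levels was not tested.

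**Figure D4:**
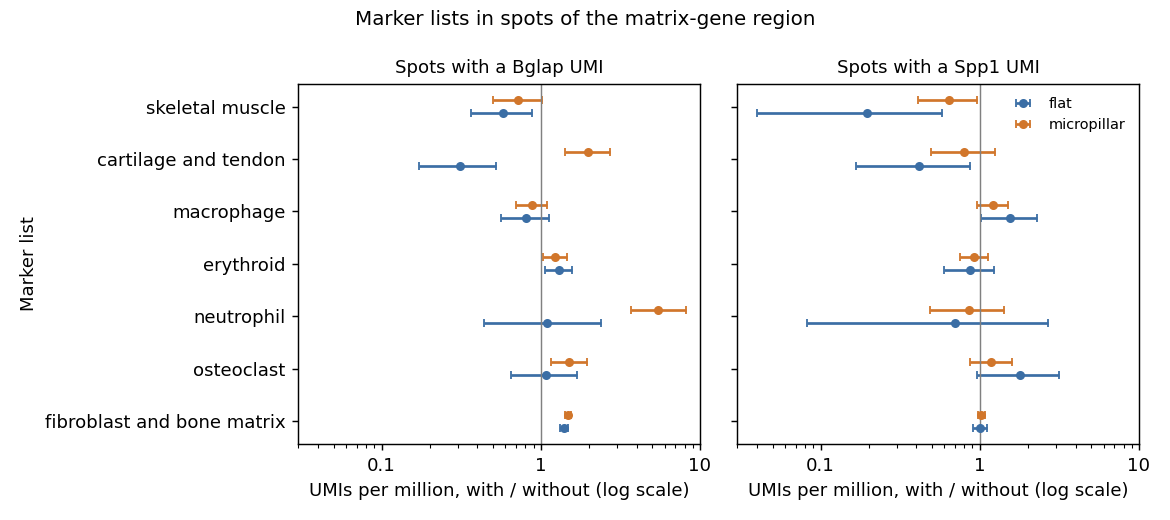
Ratio of summed marker-list CPM in matrix-gene spots with a UMI of Bglap (left) or Spp1 (right) to those without it, by library, with exact 95% intervals (log scale). The neutrophil list stands at 5.44 in micropillar Bglap spots and 1.09 in flat ones, and the matrix list lies above 1 for Bglap in both libraries.

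Inside the matrix-gene region none of the 4 genes of the set with at least 20 UMIs passed 2-fold between libraries, where 18.4% of 3192 genes did and 5.80% were lower in the micropillar library by that much. Bglap had a log2 ratio of 0.37 (0.033 to 0.71), Spp1 0.52 (-0.22 to 1.30), Alpl 0.28 (-1.01 to 1.70) and Runx2 -0.92 (-1.78 to -0.062). The summed set, 176 flat and 354 micropillar UMIs, was at 0.20 (-0.061 to 0.47). The Bglap ratio was 0.84 among spots with at least 500 UMIs and 0.0088 (-0.27 to 0.30) with the Elane region joined, where it rests on 165 and 277 UMIs. Of the 10 spots of each library richest in the set, 3 flat and 8 micropillar spots lay in this region, with 16 of the 108 flat and 128 of the 243 micropillar Bglap UMIs. The Runx2 ratio ran from -1.40 among spots with at least 500 UMIs to -0.13 with spots assigned by marker list, and was -0.46 with equal weights per spot. For scale, the collagen gene Col1a2 was at -0.14 (-0.20 to -0.080) in the region. Bglap per 1000 Col1a2 UMIs came to 31.7 (25.9 to 38.4) for flat and 45.1 (39.5 to 51.3) for micropillar spots. In the Elane region the order turned, with 227.1 (167.2 to 303.8) for flat and 188.9 (126.9 to 273.7) for micropillar spots. With both regions joined, the 165 flat and 277 micropillar Bglap UMIs stood beside 3658 and 5573 Col1a2 UMIs.

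**Figure D5:**
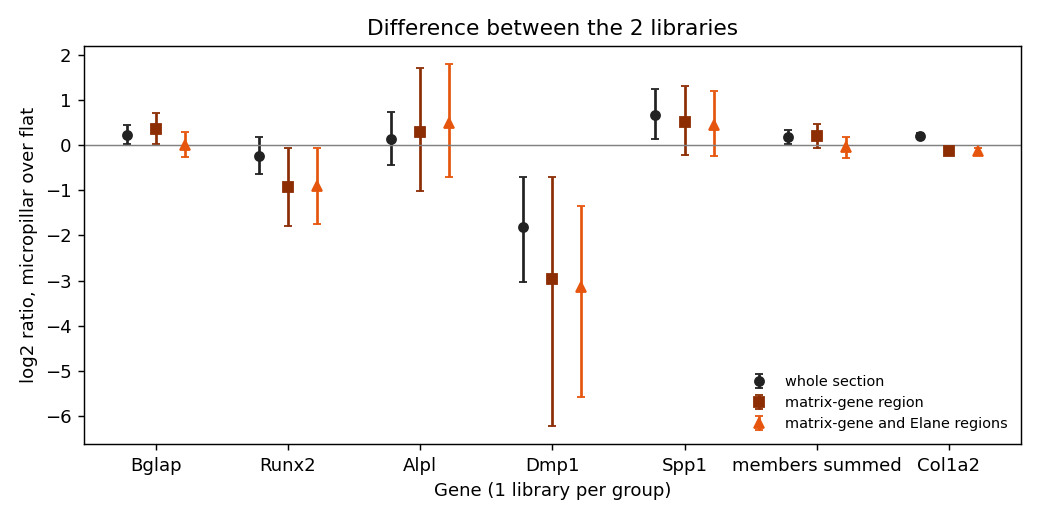
Log2 ratio of micropillar over flat CPM for 5 genes, the 10 genes summed and Col1a2, over the whole section, the matrix-gene region and that region joined with the Elane region, with exact 95% intervals. Bglap stands above 0 in the matrix-gene region and at 0.0088 with the Elane region joined, while the Dmp1 and Runx2 points stand below 0 in all 3. The whole-section Runx2 interval includes 0, and the regional Dmp1 points rest on fewer than 20 UMIs.

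Other genes of the bone-forming pathway were read in the same region from 5 lists. Of 11 osteoblast regulators and partners, 4 had at least 20 UMIs and none of these was higher in the micropillar library. Over all 3192 genes, 1592 were higher. The median log2 ratio of the 4 was -0.21, against -0.0061 over all genes. Atf4, a factor of osteoblast amino acid supply, had 24 flat and 32 micropillar UMIs and the lowest ratio, -0.39, and Creb3l1 the highest, -0.11. Among 17 genes of signals to osteoblasts and osteocytes, 1 of 5 was higher and the median was -0.62. Lrp6, a co-receptor for Wnt, had 19 and 10 UMIs and a ratio of -1.73 (-3.00 to -0.55), past 2-fold. Of all 3192 genes, 185 (5.80%) were lower by that much. Smad1, a transducer of BMP signals, had the most UMIs, 21 and 35, at -0.067. Fgfr1, a fibroblast growth factor receptor, was the highest at 0.026. Sost, the osteocyte inhibitor of Wnt signalling, had 5 and 14 UMIs and was under the count needed; it was picked out after its values were seen.

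The mineralization list had 2 of 4 genes higher and a median of -0.045. Furin, a protease that trims precursor proteins, was past 2-fold lower with 24 and 20 UMIs and a ratio of -1.07 (-2.0 to -0.15). By that much, 5.80% of all 3192 genes in the region were lower. Vkorc1, which recycles vitamin K for the carboxylation of osteocalcin, had 84 and 122 UMIs and -0.27, and Entpd5, a nucleotidase, was the highest at 0.48. The list of bone matrix and secretion genes had 1 of 11 higher, Serpinh1, the collagen chaperone, at 0.21, and a median of -0.28, with Serpinf1 lowest at -0.74 (-1.25 to -0.24). The surface and cytoskeleton list had 1 of 6 higher, the gap junction gene Gja1 at 0.31, with Mmp13, a collagenase, lowest at -0.33. The set itself had 3 of 4 higher and a median of 0.32, where 1592 of all 3192 genes were higher. Of these 3, Spp1 and Alpl had intervals that included 0, and Bglap was at 0.0088 with the Elane region joined.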

How the data were processed

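The deposited files hold, per library, a matrix of UMI counts per gene and spot. The authors' counts come from Space Ranger 2.0.1 per the file headers. Cell Ranger 7.2.0 and the mm10 build are given per the submitters' processing notes, and a kit for directional mRNA libraries per the labels' protocols. Whether capture used probes or poly(A) is not given in the sources used here, so UMI numbers of different genes say how well each was captured and counted, and were not read as differences in expression between genes. The counts were used as deposited.

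Spots with at least 100 UMIs were kept. UMIs were summed over spots and divided by the total, giving CPM. Intervals were exact Poisson for sums and exact Clopper-Pearson for shares and for ratios of sums given both totals, at 95%. A count of 0 allows up to 3 UMIs. Called means a ratio of 2-fold or more in either direction among genes with at least 20 UMIs over both libraries. Spots were clustered without the 10 genes (counts scaled to 10000 and logged, 2000 variable genes, 30 principal components, 15 neighbours, Leiden resolution 0.6, python-igraph 0.11.9), and the region where Col1a2 was highest is called the matrix-gene region. Scripts ran in Python 3.11.15. Only the ratio between libraries and its interval were tested on simulated counts. TMM factors (edgeR 4.0.16) and DESeq2 1.42.0 size factors served only as other scalings. Gene positions came from GENCODE, with 19451 of 19465 identifiers matched.

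All 10 genes are named. Genes most like a gene are the first 5 by the smaller of the 2 libraries' ratios between spots with and without it, for genes with at least 20 UMIs in the spots with it in each library, and the first 12 for spots with at least 2 genes of the set. From each pathway list, the gene with most UMIs in the matrix-gene region is named, with those of the highest and of the lowest ratio there. Some genes that these rules select are not reported here. The genes and lists were chosen with earlier results of these data known.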

Additional observations from a re-analysis of the deposited data

Results flagged for a closer look

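Spots under 100 UMIs, which entered no comparison, held UMIs of the osteoblast and osteocyte genes above the limit that a count of 0 allows. The 480 such flat spots held 66, of them 49 Bglap and 5 Spp1, at 2876 CPM (2225 to 3657). The 239 such micropillar spots held 30, of them 18 Bglap and 1 Spp1, at 1955 CPM (1319 to 2790). The limits were 130.7 and 195.5 CPM, and the kept spots stood at 223.6 and 253.0. Col1a2 had 281 and 197 UMIs in the same shallow spots. With no minimum of UMIs per spot, the log2 ratio of the summed genes was 0.062 in place of 0.18.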

How the results depend on the processing

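The libraries have 1 section per group, so depth and section cannot be told apart from the implant, and 5 of the 10 genes had under 20 UMIs. The summed log2 ratio over the section, 0.18, became 0.56 with a minimum of 500 UMIs per spot and turned to -0.074 with every spot given the same weight, where Bglap turned to -0.12. In the matrix-gene region the summed ratio of 0.20 was -1.07 with spots assigned by marker list and -0.28 without the 10 richest spots of each library, and Bglap turned to -1.50 and -0.46; leaving out spots by the value measured lowers the library with the richer spots by construction, so these last values are no check of the difference. The region's share of the set's UMIs, 34.8% in the flat library, was 48.2% at resolution 0.3, 0% at resolution 1.0, 14.6% by marker list, 6.51% in spots with at least 500 UMIs and 48.6% with the Elane region joined. In the micropillar library 44.1% became 49.3%, 4.86%, 6.73%, 28.7% and 49.4%. At resolution 1.0 the region of highest Col1a2 had 16 and 4 spots with 0 and 39 UMIs of the set, so it gave no ratio. The cause was not tested, beyond the different spots each setting uses. Leaving out the richest spots, joining the Elane region and leaving out regions 7 and 8 were chosen after seeing the data. Of 29 alternatives for the summed ratios and shares, 15 gave a value inside the counting interval of the main result. For single genes it was 68 of 71 over the section and 35 of 39 in the region. The 71 include those of Sp7, Ifitm5, Phex and Mepe, each under 20 UMIs. Their intervals are so wide that a value inside is a weak check of the ratio. Where the interval includes 0, such a value can have the other sign: the Phex log2 ratio over the section was -0.49, and 1.70 with every spot given the same weight. Of 44 alternatives for detection, which were the share without thinning and the share thinned to 500 UMIs, 19 fell outside the interval. Without thinning all UMIs of a spot count, so a higher share there follows largely from the setting. No paired analysis was possible because each group has 1 library.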
